A study of Mus musculus with 2 samples.

Results

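The colony-stimulating and stem cell factors described here are 9 genes: the factors Csf1, Csf2, Il34 and Kitl, and the receptor genes Csf1r, Csf2ra, Csf2rb, Csf3r and Kit. They were taken by symbol, and all 9 were listed both among the 17758 genes of a single-cell table and among the 16906 genes of a bulk table. Bulk RNA-seq measured PDGFRA+ cells sorted from the lung periphery of Pdgfra-H2BGFP mice, which carry a nuclear GFP reporter of the fibroblast receptor gene Pdgfra, at postnatal day 3. Single-cell RNA-seq (10x Chromium 3′ chemistry) measured sorted cells of the peripheral lung of wild-type mice at the same age. Both are control lungs with no treatment named, each group is 1 sample, and pooling of animals is not stated in the sources used here. With 1 sample per group no comparison could be tested, so levels and shares are described by size.

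Colony-stimulating factors and stem cell factor are secreted or membrane-bound proteins that keep myeloid and mast cells alive and drive their growth and maturation. CSF1 and IL-34 are the ligands of the receptor tyrosine kinase CSF1R, on which most tissue macrophages depend, while stem cell factor (Kitl) is the ligand of KIT, a related kinase known from mast cells and blood stem cells. GM-CSF (Csf2) acts through an alpha chain (Csf2ra) that binds it and a beta chain (Csf2rb) that signals, and in the newborn lung it is needed for alveolar macrophages to mature. G-CSF acts through CSF3R and drives the production of neutrophils.

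After 646 cells above 10% mitochondrial UMIs and 221 predicted doublets (2.07%) were left out, 10439 of 11306 cells remained, all from 1 library, so no barcodes could be shared between libraries. Cells were clustered without the 9 genes and named from marker genes, and each name is written with "-like". The largest of the 26 named classes were alveolar macrophage-like (1495 cells), T-like (1406), neutrophil-like (1234), lipofibroblast or matrix fibroblast-like (752), myofibroblast-like (664) and general capillary endothelial-like (630). The smallest were 23 Tpsb2-led basophil or mast-like, 24 ciliated-like, 32 lymphatic endothelial-like, 35 alveolar type 1-like, 45 mesothelial-like and 48 group 2 innate lymphoid-like cells. A level is given in CPM, the sum of a gene's UMIs in a class scaled to a class total of 1000000 UMIs. The deposited UMIs look corrected for depth: they sum to 62575796, cell totals had a median of 5537 and spanned 1.79-fold, while median genes per cell ran between 1004 in neutrophil-like and 3206 in ciliated-like cells. Shares of cells with a UMI carry exact Clopper-Pearson 95% intervals, which cover counting error only and not differences between animals. Where no cell had a UMI, the limit given is 3 cells of the class, and it limits cells with a UMI, not cells that express the gene.

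On mm10 (GENCODE M21) Csf1 lies at chr3:107741048-107760469 on the minus strand, Csf2 at chr11:54247271-54249667 (minus), Il34 at chr8:110741829-110805924 (minus) and Kitl at chr10:100015630-100100416 (plus). Of the receptor genes, Csf2ra lies at chr19:61223957-61228429 (minus), Csf2rb at chr15:78325752-78353847 (plus), Csf3r at chr4:126024550-126044440 (plus) and Kit at chr5:75574916-75656722 (plus). Exons of Csf2 overlap those of Gm12223 on the opposite strand and exons of Il34 those of Gm15894 and Gm15895, and use of strand in the counting is not stated in the sources used here.

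The RefSeq promoter table (GRCm38.p6) matched 6 of the 9 genes: Csf1, Csf2, Kitl, Csf2ra, Csf3r and Kit. The 250 bases before the RefSeq start were searched on both strands for the letters AGATAA, bound by GATA factors, GAGGAA, bound by ETS factors, TGANTCA, bound by AP-1, and TATAAA, the TATA box. These are shown because the genes that share a cell class below, such as the receptors of myeloid cells, can be set beside the letters before their starts. Printed are the parts that lie before both the RefSeq and the GENCODE start, 5′ to 3′ on the gene's strand, for the 5 genes whose part is longer than 100 bases. They are chr3:107760470-107760719 (minus) for Csf1, chr11:54249900-54250149 (minus) for Csf2, chr19:61228430-61228668 (minus) for Csf2ra, chr4:126024409-126024549 (plus) for Csf3r and chr5:75574737-75574915 (plus) for Kit. Capitals mark a motif:
Csf1: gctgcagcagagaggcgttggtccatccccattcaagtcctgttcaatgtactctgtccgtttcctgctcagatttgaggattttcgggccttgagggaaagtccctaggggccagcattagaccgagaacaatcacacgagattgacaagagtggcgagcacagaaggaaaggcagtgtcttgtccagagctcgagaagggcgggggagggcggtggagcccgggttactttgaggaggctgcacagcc
Csf2: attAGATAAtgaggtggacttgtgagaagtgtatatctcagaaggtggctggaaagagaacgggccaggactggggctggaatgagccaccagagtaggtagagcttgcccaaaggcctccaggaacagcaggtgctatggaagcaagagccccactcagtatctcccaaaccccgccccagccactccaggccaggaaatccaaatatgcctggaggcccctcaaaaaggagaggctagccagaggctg
Csf2ra: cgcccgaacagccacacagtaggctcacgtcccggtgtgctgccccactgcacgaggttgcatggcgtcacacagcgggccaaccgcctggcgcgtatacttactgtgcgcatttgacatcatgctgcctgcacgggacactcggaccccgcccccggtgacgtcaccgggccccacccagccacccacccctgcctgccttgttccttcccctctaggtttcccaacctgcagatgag
Csf3r: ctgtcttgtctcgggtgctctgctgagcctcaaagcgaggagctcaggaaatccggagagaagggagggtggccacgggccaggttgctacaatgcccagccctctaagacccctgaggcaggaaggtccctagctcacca
Kit: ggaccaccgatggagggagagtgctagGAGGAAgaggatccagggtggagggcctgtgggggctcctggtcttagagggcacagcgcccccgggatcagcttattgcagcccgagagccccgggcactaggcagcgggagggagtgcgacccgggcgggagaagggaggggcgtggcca

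AGATAA was found 1 time before Csf2 and GAGGAA 1 time before Kit, both in the printed parts, and no match overlapped another. GAGGAA also occurred 2 times before Csf2ra and 1 time before Csf3r, in the unprinted part of the windows, which the GENCODE models place across or after their own starts. TATAAA occurred 1 time before the RefSeq start of Kitl, but after its GENCODE start, and none of the letters searched occurred before Csf1. The Csf2 window ended at base 54249900, upstream of the GENCODE start of Csf2 at 54249667, and the bases between were not searched. Of 32851 promoters of the same length, 9.99% held AGATAA, 23.3% GAGGAA, 6.75% TGANTCA and 12.4% TATAAA. All 6 windows were richer in G and C than the median promoter (52.4%): Kit (70.8%), Kitl (69.2%), Csf2ra (64.8%), Csf3r (60.0%), Csf1 (56.4%) and Csf2 (55.2%). CpG pairs numbered 23 for Kitl, 17 for Kit and for Csf2ra, 10 for Csf1, 6 for Csf3r and 2 for Csf2, against a median of 6.

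The factors were spread over different compartments, whereas 4 of the 5 receptors were together in myeloid-like cells. Counting a gene as high where log2((CPM + 1)/(CPM + 1)) of a compartment over all other cells was at least 1, 5 of the 9 genes were high in myeloid-like cells (Csf1, Csf1r, Csf2ra, Csf2rb and Csf3r), as were 10.0% of 15436 genes with at least 20 UMIs. Endothelial-like cells had 2 (Kitl and Kit, background 10.3%), epithelial-like cells 1 (Il34, background 14.7%), lymphoid-like cells 1 (Csf2, background 6.03%) and mesenchymal-like cells 0 (background 21.7%). Csf3r was at 283 CPM in myeloid-like cells and 10.8 CPM in all other cells (log2 ratio 4.59). Kit was at 239 CPM in endothelial-like cells and 8.43 CPM in all other cells (4.67). The gene of the set nearest to the limit in mesenchymal-like cells was Kitl, at 133 CPM against 70.6 CPM in all other cells (0.90). The log2 ratio of the median gene was 0.24 in mesenchymal-like, −0.47 in myeloid-like and −0.48 in lymphoid-like cells, against which these ratios can be read.

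**Figure D1:**
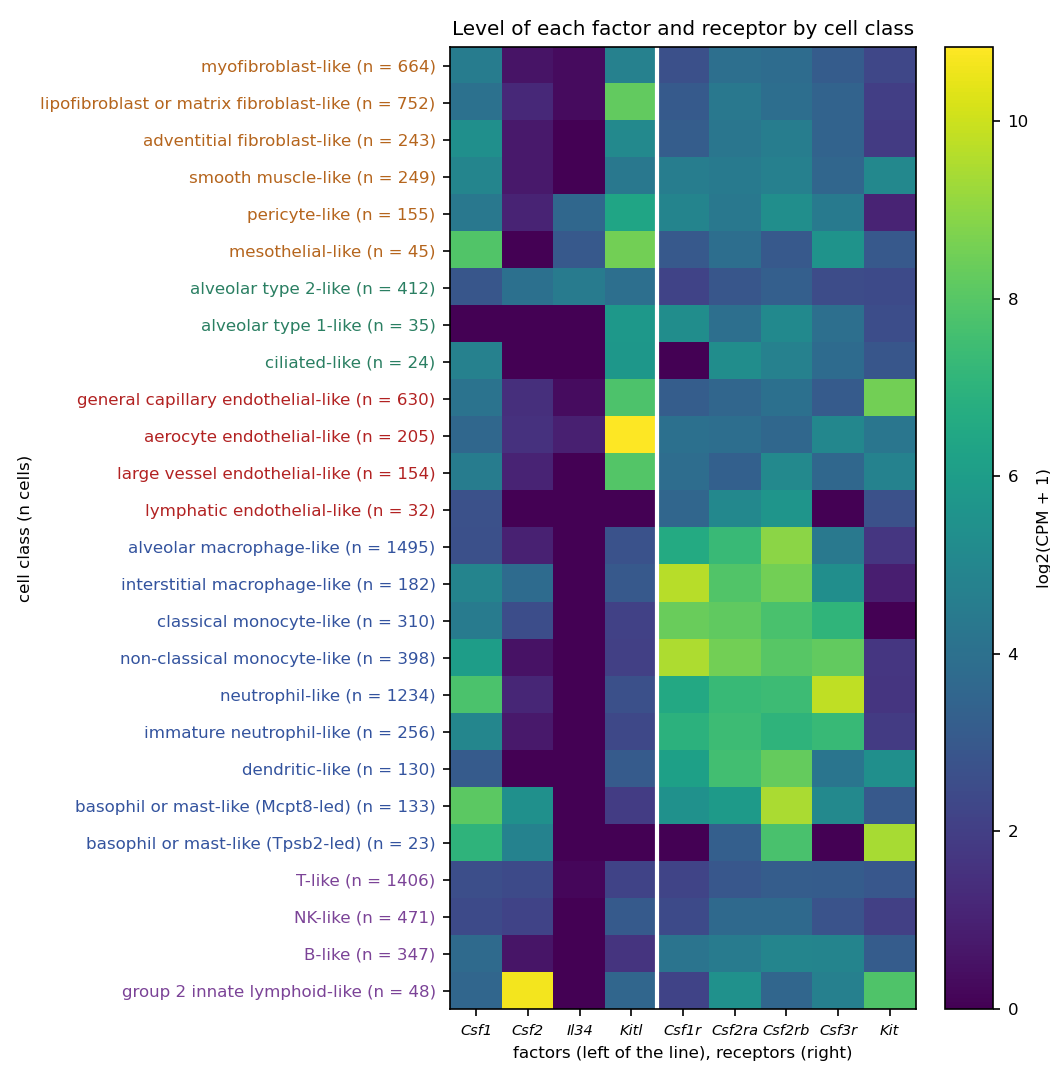
Level of each of the 9 genes (columns, factors left of the white line and receptors right of it) in each of the 26 named cell classes (rows, coloured by compartment: brown mesenchymal, green epithelial, red endothelial, blue myeloid, purple lymphoid), as log2(CPM + 1). Csf2 stands out in group 2 innate lymphoid-like cells (1600 CPM), Kitl in aerocyte endothelial-like cells (1823 CPM), and the columns of Csf1r, Csf2ra, Csf2rb and Csf3r are brightest in the blue rows.

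Csf1, which encodes M-CSF, the main growth factor of macrophages, was highest in granulocyte-like and mesothelial-like cells. It reached 276 CPM in Mcpt8-led basophil or mast-like cells, 237 CPM in mesothelial-like cells, 219 CPM in neutrophil-like cells and 133 CPM in Tpsb2-led basophil or mast-like cells. The Tpsb2-led level rests on 15 UMIs in 4 of 23 cells. Non-classical monocyte-like cells followed with 64.4 CPM and adventitial fibroblast-like cells with 41.7 CPM. The other 20 classes lay between 0 and 30.2 CPM, so the leading classes were stromal, granulocytic and monocytic. By share of cells the order was different, with mesothelial-like cells at 73.3% (58.1 to 85.4%), Mcpt8-led cells at 52.6% (43.8 to 61.4%), neutrophil-like cells at 30.2% (27.7 to 32.9%) and adventitial fibroblast-like cells at 20.6% (15.7 to 26.2%). The intervals of the 2 leading classes overlapped, and that of neutrophil-like cells overlapped neither neighbour.

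Neutrophil-like cells held 53.0% of all Csf1 UMIs, Mcpt8-led cells 8.49% and the mesothelial-like cells 2.90%. Within neutrophil-like cells Csf1 was uneven: 1 cluster of 1065 cells was at 249.7 CPM and another of 169 cells at 50.7 CPM. Neutrophil-like cells had the fewest genes per cell (1004), and a detected Csf1 value in them averaged 3.28 corrected UMIs against 1.12 in myofibroblast-like cells (2806 genes); the part of any depth correction in these levels was not tested. Myofibroblast-like cells were at 22.5 CPM (12.2% of cells, 9.81 to 14.9%) and lipofibroblast or matrix fibroblast-like cells at 15.7 CPM (7.71%, 5.91 to 9.86%). NK-like cells, the background class with a median of 1546 genes, were at 4.32 CPM and 1.49% (0.600 to 3.04%).

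Csf2, which encodes GM-CSF, was at 1600 CPM in group 2 innate lymphoid-like cells, a class of tissue-resident lymphocytes known for type 2 cytokines. A Csf2 UMI was found in 77.1% of these 48 cells (62.7 to 88.0%), with 12.0 UMIs on average where it was detected. They held 70.4% of all 632 Csf2 UMIs. Of the cells with a Csf2 UMI, 24.8% were group 2 innate lymphoid-like and 24.8% alveolar type 2-like. The next levels were 42.2 CPM in Mcpt8-led and 26.6 CPM in Tpsb2-led basophil or mast-like cells, 14.8 CPM in alveolar type 2-like cells and 12.7 CPM in interstitial macrophage-like cells. The Mcpt8-led level rests on 30 UMIs in 8 of 133 cells and the Tpsb2-led level on 3 UMIs in 2 of 23 cells. The other 21 classes lay between 0 and 4.96 CPM. In alveolar type 2-like cells, the surfactant-making epithelial cells, 8.98% of cells (6.40 to 12.2%; median 2193 genes) had a UMI, each with 1 UMI, against 0.535% of alveolar macrophage-like cells (0.231 to 1.05%; median 2497 genes). The intervals of alveolar type 2-like, Mcpt8-led, Tpsb2-led and interstitial macrophage-like cells overlapped in the order of shares, and that of group 2 innate lymphoid-like cells stood clear of all of them.

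The level in group 2 innate lymphoid-like cells rests on few cells and on how the class is drawn. The 10 cells with most Csf2 held 43.2% of its UMIs and the 50 with most held 82.9%. When clusters were rebuilt the class held more cells at a lower level: with a stricter cell filter it had 277 cells and 260.7 CPM, at a finer clustering 187 cells and 429.8 CPM, and with predicted doublets kept 77 cells and 967 CPM. Before it was divided, its parent cluster of 299 cells held 72.9% of the Csf2 UMIs. With the stricter filter and at the finer clustering the larger class was also led by Il17a, Trdv4 and Cd163l1. In the clustering used here these genes led a T-like cluster of 124 cells, divided from the same parent cluster.

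Il34, which encodes the other CSF1R ligand, was scarce, with 71 UMIs in 67 cells. Alveolar type 2-like cells held 76.1% of them at 21.6 CPM, and 12.6% of these cells (9.57 to 16.2%) had a UMI. Pericyte-like cells, which wrap around capillaries, were at 11.4 CPM (5.16% of cells, 2.25 to 9.92%) and mesothelial-like cells at 7.07 CPM (2 UMIs in 45 cells). The intervals of these 3 classes overlapped along the order. The other 23 classes lay between 0 and 0.948 CPM, with 18 of them at 0. No myeloid-like class had a UMI: 0 of 1495 alveolar macrophage-like cells allows a share of up to 0.201%, and 0 of 1234 neutrophil-like cells up to 0.243%. Set side by side, Il34 and Csf1 shared only the mesothelial-like class among their 3 leading classes.

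**Figure D2:**
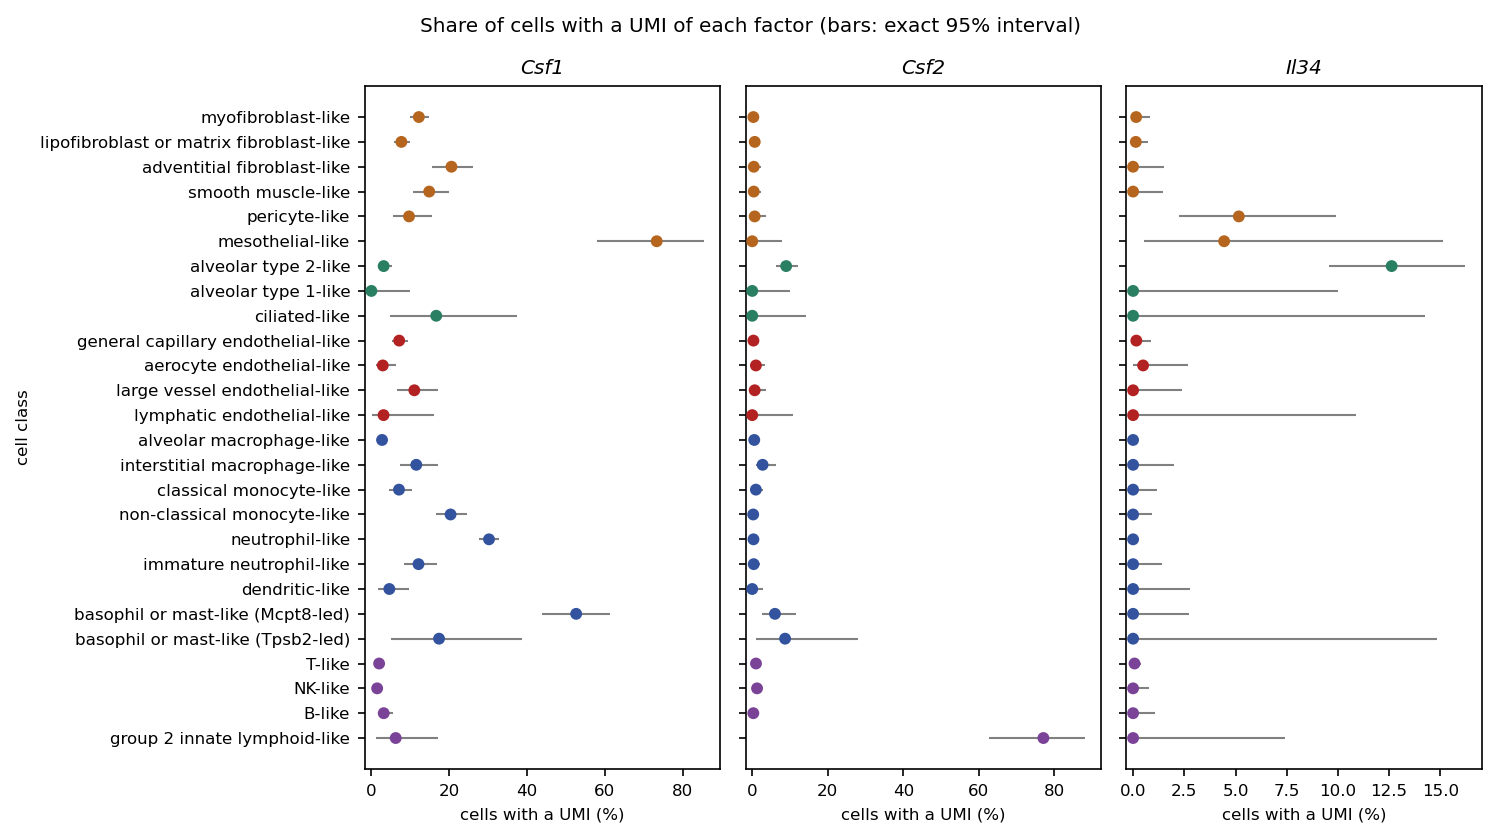
Share of cells with a UMI of Csf1, Csf2 and Il34 in percent (each panel has its own axis from 0) for the 26 named classes, coloured by compartment (brown mesenchymal, green epithelial, red endothelial, blue myeloid, purple lymphoid); bars are exact 95% intervals. Mesothelial-like cells lead for Csf1 (73.3%), group 2 innate lymphoid-like cells for Csf2 (77.1%) and alveolar type 2-like cells for Il34 (12.6%).

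Kitl, which encodes stem cell factor, was mostly endothelial and fibroblastic. Aerocyte endothelial-like cells, the capillary cells that lie on the gas-exchange surface, were at 1823 CPM with a UMI in 95.1% of cells (91.2 to 97.6%). Mesothelial-like cells were at 371 CPM (80.0%, 65.4 to 90.4%), lipofibroblast or matrix fibroblast-like cells at 295 CPM (72.1%, 68.7 to 75.3%), large vessel endothelial-like cells at 242.5 CPM (65.6%, 57.5 to 73.0%) and general capillary endothelial-like cells at 222 CPM (62.9%, 59.0 to 66.6%). The interval of aerocyte endothelial-like cells overlapped no other, and those of the next 4 classes overlapped each with its neighbour. Of the 154 large vessel endothelial-like cells, 84 formed a cluster led by Vwf and Fbln2. Whenever clusters were rebuilt, a cluster led by these genes was named general capillary endothelial-like, so the border between these classes was not firm. Pericyte-like cells were at 81.1 CPM (23.9%), and the remaining 20 classes lay between 0 and 53.8 CPM. Of all Kitl UMIs, 39.2% lay in 205 aerocyte endothelial-like cells, 25.8% in lipofibroblast or matrix fibroblast-like cells and 15.8% in general capillary endothelial-like cells.

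Kitl divided the fibroblast-like classes and the endothelial-like classes. Among fibroblasts, myofibroblast-like cells had 26.2 CPM and adventitial fibroblast-like cells 33.6 CPM, both far below lipofibroblast or matrix fibroblast-like cells and above T-like cells (3.59 CPM; 1.71% of cells, median 1677 genes). A dividing mesenchymal cluster of 61 cells, left unnamed by its leading genes, had its best marker score for lipofibroblasts and was at 206 CPM. Among endothelial-like classes, no UMI was found in 32 lymphatic endothelial-like cells, which allows a share of up to 9.38%.

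Kit, the receptor of stem cell factor, was highest in 3 classes. Tpsb2-led basophil or mast-like cells were at 673 CPM (78.3%, 56.3 to 92.5%), general capillary endothelial-like cells at 371 CPM (75.2%, 71.7 to 78.6%) and group 2 innate lymphoid-like cells at 230 CPM (72.9%, 58.2 to 84.7%). Their intervals overlapped. The other 23 classes lay between 0 and 40.6 CPM, led by dendritic-like (40.6 CPM), smooth muscle-like (32.6 CPM), large vessel endothelial-like (27.2 CPM) and aerocyte endothelial-like cells (18.0 CPM). The Mcpt8-led class had 7.03 CPM, close to T-like cells at 6.79 CPM (2.49% of cells). With a stricter cell filter no Tpsb2-led class was named. Within T-like cells, a cluster of 124 cells led by Il22, Il17a and Trdv4 stood higher, at 34.6 CPM. General capillary endothelial-like cells held 72.7% of all Kit UMIs, and their dividing cluster (337.7 CPM, 136 cells) was near the non-dividing one (381.5 CPM, 494 cells).

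In general capillary endothelial-like cells 49.4% of cells (45.4 to 53.3%) had UMIs of both Kitl and Kit, against 47.3% from the product of the 2 shares. Aerocyte endothelial-like cells, with the most Kitl, had both in 7.80%. In the other classes that carried Kit, Kitl was at 10.8 CPM (group 2 innate lymphoid-like) or had no UMI in 23 cells (Tpsb2-led), which allows a share of up to 13.04%.

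**Figure D3:**
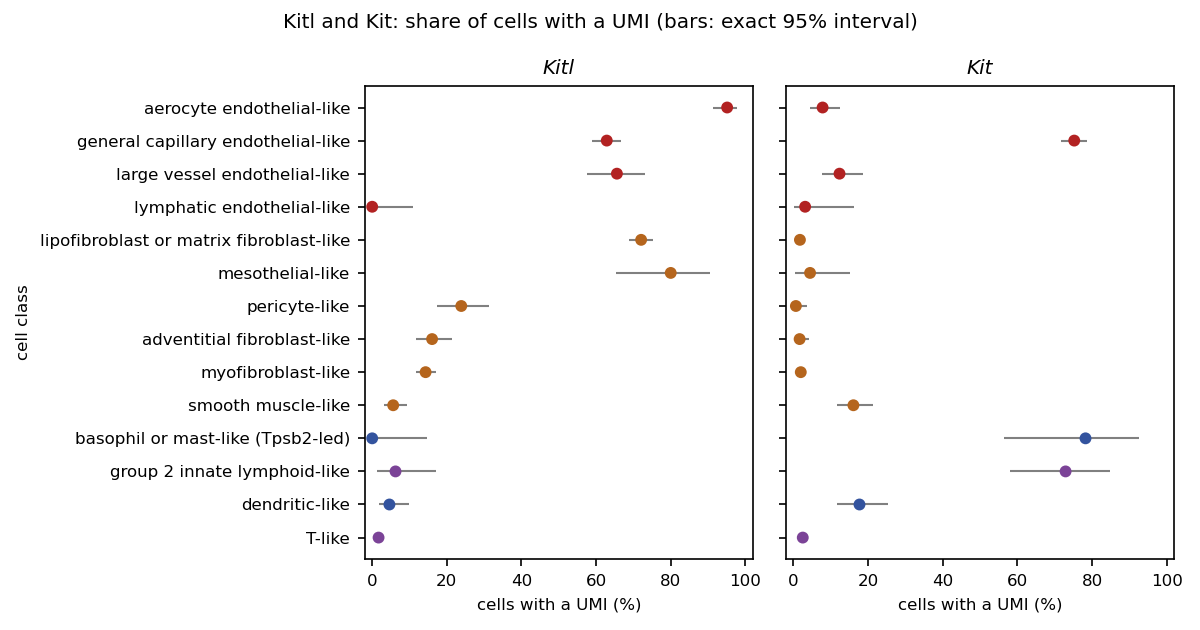
Share of cells with a UMI of Kitl (left) and Kit (right) in percent, in 14 classes coloured by compartment (red endothelial, brown mesenchymal, blue myeloid, purple lymphoid); bars are exact 95% intervals. Aerocyte endothelial-like cells are at 95.1% for Kitl and 7.80% for Kit, general capillary endothelial-like cells at 62.9% and 75.2%.

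Csf1r, on chromosome 18 with exons that overlap Hmgxb3 on the opposite strand, encodes the receptor kinase of CSF1 and IL-34. It was highest in interstitial macrophage-like cells at 825 CPM (94.5% of cells, 90.1 to 97.3%) and in non-classical monocyte-like cells at 724 CPM (94.0%, 91.2 to 96.1%), whose shares overlapped. Classical monocyte-like cells had 324 CPM (78.1%), immature neutrophil-like cells 123 CPM (32.4%), alveolar macrophage-like cells 98.4 CPM (41.3%), neutrophil-like cells 90.7 CPM (17.8%) and dendritic-like cells 69.7 CPM (30.8%). The other 19 classes lay between 0 and 43.6 CPM. T-like cells, the background class, were at 3.71 CPM (1.92% of cells). Macrophage-like cells thus differed among themselves, interstitial over alveolar, by more than their intervals.

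The clusters within these classes spread the range further. Among interstitial macrophage-like cells, 70 cells led by Ccl12, Ccl7 and Pf4 were at 1321 CPM of Csf1r and 98 cells led by complement C1q and MHC class II genes at 558 CPM. Among alveolar macrophage-like cells, 141 cells whose marker scores for alveolar and interstitial macrophages were close (2.34 and 2.17) were at 248 CPM, against 86.4 CPM in the main cluster of 1069 cells and 69.9 CPM in the dividing cluster of 285 cells. Among immature neutrophil-like cells, 97 cells were at 266.7 CPM and 135 cells at 7.90 CPM. With a stricter cell filter the interstitial macrophage-like class grew to 321 cells and its Csf1r was 523 CPM.

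Csf2ra, the binding chain of the GM-CSF receptor, was broad over myeloid-like classes. Non-classical monocyte-like cells had 362.5 CPM (82.2%), classical monocyte-like cells 288.5 CPM (81.9%), interstitial macrophage-like cells 238 CPM (69.2%), dendritic-like cells 189 CPM (66.9%), immature neutrophil-like cells 173 CPM (60.2%), alveolar macrophage-like cells 163 CPM (60.3%) and neutrophil-like cells 157 CPM (29.7%). The shares of both monocyte-like classes overlapped, as did those of interstitial macrophage-like and dendritic-like cells, and neutrophil-like cells stood clear below. By level neutrophil-like cells were close to alveolar macrophage-like cells, but they had fewer genes per cell (1004 against 2497). The part of depth in their lower share was not tested. The other 19 classes lay between 6.39 and 59.1 CPM, with Mcpt8-led basophil or mast-like cells highest (21.8% of cells) and NK-like cells at 12.2 CPM (4.67%).

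Csf2rb, the signalling chain shared by the receptors of GM-CSF, IL-3 and IL-5, had a different order. It was highest in Mcpt8-led basophil or mast-like cells at 700.5 CPM (82.7%, 75.2 to 88.7%) and in alveolar macrophage-like cells at 488 CPM (88.2%, 86.5 to 89.8%), whose shares overlapped. Interstitial macrophage-like cells had 365 CPM, dendritic-like cells 308 CPM, non-classical monocyte-like cells 260.0 CPM, Tpsb2-led cells 212 CPM, classical monocyte-like cells 209 CPM, neutrophil-like cells 173 CPM and immature neutrophil-like cells 132 CPM. The other 17 classes lay between 7.07 and 48.9 CPM, NK-like cells being at 12.2 CPM (4.88% of cells). Dividing alveolar macrophage-like cells had 306 CPM against 522 CPM in the main cluster. Alveolar macrophage-like cells held 50.6% of all Csf2rb UMIs and 29.0% of those of Csf2ra.

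Csf2rb2, a near-identical copy that serves the mouse IL-3 receptor, lies 20030 bases from Csf2rb on the opposite strand, and reads can be split between the copies. Its leading classes were the same, with 209.6 CPM in Mcpt8-led cells and 97.7 CPM in alveolar macrophage-like cells. Both chains of the GM-CSF receptor were found together in 57.1% of classical monocyte-like, 55.5% of interstitial macrophage-like, 55.3% of non-classical monocyte-like, 55.1% of alveolar macrophage-like and 51.5% of dendritic-like cells. The product of the 2 shares was within 5 percentage points of each of these values. The share was 18.8% in Mcpt8-led cells, where Csf2ra was the rarer chain, and 8.51% in neutrophil-like cells, which had the fewest genes per cell. Group 2 innate lymphoid-like cells, with most Csf2, had 43.1 CPM of Csf2ra and 10.8 CPM of Csf2rb, and 0 of 48 cells had both, which allows a share of up to 6.25%.

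Csf3r, the G-CSF receptor, was led by neutrophil-like cells, with 897 CPM in neutrophil-like cells (81.0%, 78.7 to 83.2%) and 73.6% of all its UMIs there. Non-classical monocyte-like cells had 296 CPM (59.6%, 54.5 to 64.4%), immature neutrophil-like cells 155 CPM (51.2%, 44.9 to 57.5%) and classical monocyte-like cells 134 CPM (47.7%, 42.1 to 53.5%). The interval of immature neutrophil-like cells overlapped those of both monocyte-like classes, which did not overlap each other, and the 22 remaining classes lay between 0 and 45.9 CPM. The best marker score of the non-classical monocyte-like cluster was 4.57, and its second-best, for neutrophils, was 3.10. With a stricter cell filter, 38 cells led by Adgre4 and Retnlg were named neutrophil-like. The part of mixed cells in the non-classical value was not tested. Alveolar macrophage-like cells were at 19.9 CPM (9.70%) and NK-like cells at 5.90 CPM (2.55%). Small clusters named B-like (18 cells, 468 CPM) and T-like (20 cells, 253 CPM) were far above the main B-like (3.39 CPM) and T-like (4.05 CPM) clusters; their second-best marker score was for neutrophils (4.37 and 2.82), and the part of mixed cells in them was not tested.

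**Figure D4:**
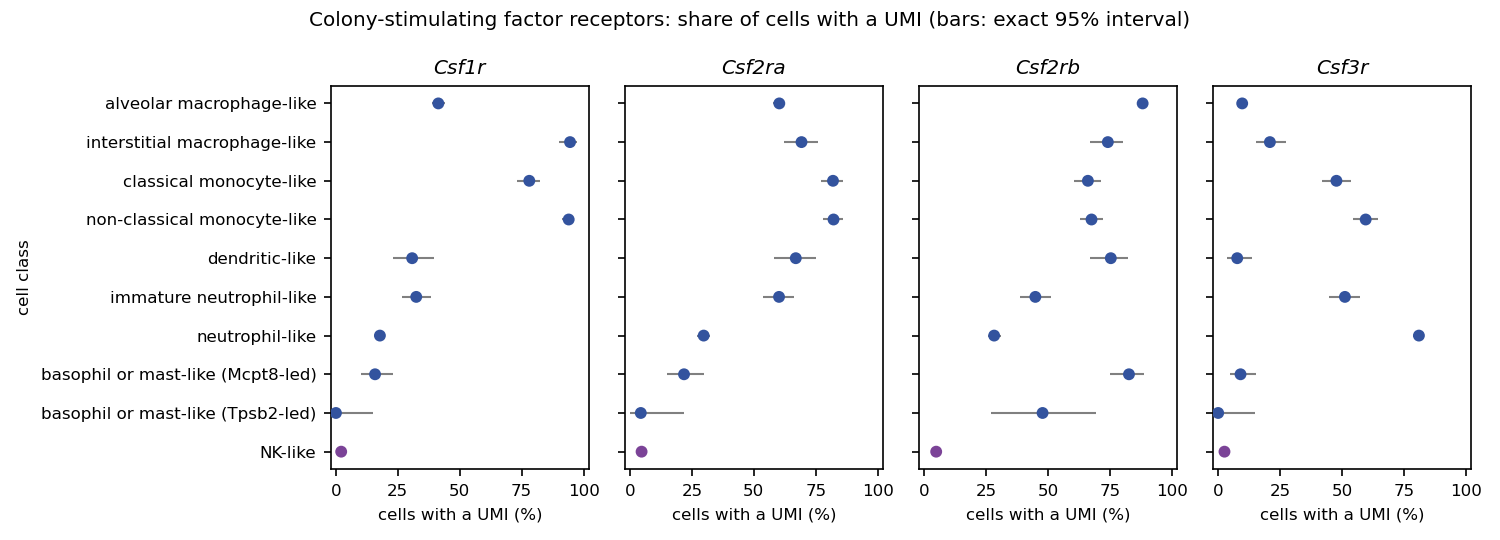
Share of cells with a UMI of Csf1r, Csf2ra, Csf2rb and Csf3r in percent, in 9 myeloid-like classes (blue) and in NK-like cells (purple) as background; bars are exact 95% intervals. Csf1r leads in interstitial macrophage-like cells (94.5%), Csf2rb in alveolar macrophage-like cells (88.2%) and Csf3r in neutrophil-like cells (81.0%), while NK-like cells are under 5% in every panel.

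Ligand and receptor of the macrophage factor were also found in the same cells. Csf1 and Csf1r were both detected in 19.8% of non-classical monocyte-like cells (16.0 to 24.1%), 11.0% of interstitial macrophage-like cells and 5.02% of neutrophil-like cells, and each value was close to the product of the 2 shares (19.1%, 10.9% and 5.36%). Csf2 and Csf2rb were found together in 6.25% of group 2 innate lymphoid-like cells (3 of 48, 1.31 to 17.2%). The share was 6.02% in Mcpt8-led cells and 0.334% in alveolar macrophage-like cells. The products of the 2 shares were 4.82%, 4.98% and 0.472%, in the same order. Csf1r and Csf3r shared 57.3% of non-classical and 38.7% of classical monocyte-like cells, against 4.88% of alveolar macrophage-like cells. The part of mixed cells in the values of non-classical monocyte-like cells was not tested.

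Of 14 relatives of these factors and receptors, 12 were listed and 10 had at least 20 UMIs. Il5, another cytokine of group 2 innate lymphoid cells, was at 557 CPM in group 2 innate lymphoid-like cells (54.2% of cells), where Csf2 was highest. Csf3, which encodes G-CSF, was at 37.7 CPM in neutrophil-like cells (3.97% of cells) and 24.0 CPM in immature neutrophil-like cells. Flt3, the receptor of FLT3 ligand, was at 91.2 CPM in dendritic-like cells, and Flt3l at 43.1 CPM in group 2 innate lymphoid-like and 43.0 CPM in adventitial fibroblast-like cells. Il3ra, the IL-3 binding chain, was at 150.5 CPM in Tpsb2-led, 108 CPM in Mcpt8-led and 77.8 CPM in aerocyte endothelial-like cells, while Il5ra reached 17.7 CPM in Tpsb2-led cells (1 of 23 cells). Of the other proteins that bind IL-34, Sdc1 (syndecan) was at 416 CPM in alveolar type 2-like cells and Ptprz1, a receptor phosphatase, at 116 CPM in smooth muscle-like cells. Epor, the erythropoietin receptor, was at 40.0 CPM in pericyte-like cells.

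Among 27 signalling genes downstream of these receptors, 10 were high and 4 low in myeloid-like cells over all other cells, with 10.0% of all genes high and 27.8% low. Among the high ones, Tyrobp, an adaptor, was at 3608 CPM in myeloid-like and 343 CPM in other cells, Fes, a tyrosine kinase, at 96.1 and 15.8 CPM, and Ptpn6, an inhibitory phosphatase, at 213 and 36.7 CPM. In lymphoid-like cells 8 were high and 8 low (6.03% and 31.7% of all genes), in endothelial-like cells 1 and 5 (10.3% and 18.5%), in mesenchymal-like cells 2 (Socs2 and Socs3) and 11 (21.7% and 15.2%), and in epithelial-like cells 0 and 18 (14.7% and 22.8%). Of 16 lineage transcription factors 9 were high and 2 low in myeloid-like cells, 4 and 8 in endothelial-like, 2 and 12 in lymphoid-like, 2 and 12 in epithelial-like, and 0 and 13 in mesenchymal-like cells, beside the same shares of all genes. Those high in myeloid-like cells included Spi1 (PU.1, an ETS factor that drives myeloid fate) at 652 and 44.3 CPM and Cebpe, a granulocyte factor, at 28.2 and 1.18 CPM. Those high in endothelial-like cells were Gata2, Klf4, Lmo2 and Tal1; the blood and endothelial factors Lmo2 and Tal1 were at 206.5 and 33.7 CPM in endothelial-like cells, against 19.9 and 1.45 CPM in all other cells. Of the 3 proteases that shed these ligands or receptors, Mmp9 was at 219 CPM in myeloid-like and 7.27 CPM in other cells, Adam17 at 109 and 40.4 CPM, and Adam10 was at 106 CPM in endothelial-like and 65.3 CPM in other cells, under the limit for high.

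Over the 26 named classes, each with at least 20 cells of the same library, the genes whose log2(CPM + 1) followed each member most closely were found by Pearson's r, given as a description. For Csf2 they were Il1rl1 (r = 0.81), the IL-33 receptor, Il13 (0.77) and Xlr4c (0.77), and for Csf1 Ifitm2 (0.73), Ifitm1 (0.69) and Nfkbiz (0.69). Kitl was followed by Sorbs3 (0.86), Foxf1 (0.86), a transcription factor of lung mesenchyme and capillaries, and Glis2 (0.85), and Kit less closely by Gna14 (0.73), Tph1 (0.69) and Hs3st1 (0.65). Csf1r went with Ms4a6d (0.93), Mpeg1 (0.91) and Tifab (0.91), Csf2ra with Clec4a2 (0.91), Ebi3 (0.90) and Apobr (0.90), Csf2rb with Pirb (0.92), Csf2rb2 (0.89) and Alox5ap (0.89), and Csf3r with Slc7a11 (0.90), Clec4d (0.89) and Hp (0.89). Il34 had too few UMIs for this. Il1rl1, Il13, Tph1 and Hs3st1 were also among the leading genes of the innate lymphoid-like cluster in which Csf2 was highest. Genes used to draw and name the classes were not left out of this search. These r values are therefore not independent of how the classes were drawn, and that part was not tested.

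Bulk PDGFRA+ cells held Csf1 as their leading member. Pdgfra itself was at 184 CPM in bulk PDGFRA+ cells and 32.5 CPM in the whole single-cell library, and 6 mesenchymal markers summed to 76980 CPM in bulk and 4596 CPM in the library. Per length Csf1 was at 45.0 TPM (the authors' value), at the 80.9 percentile of listed genes, followed by Csf2ra (8.07 TPM), Kitl (7.68 TPM), Csf1r (6.40 TPM), Csf2rb (2.23 TPM), Il34 (1.24 TPM), Csf3r (1.09 TPM), Kit (0.83 TPM) and Csf2 (0.18 TPM). In CPM of 171910584 reads, with exact Poisson 95% intervals, Csf1 was at 92.7 CPM (91.2 to 94.1), Kitl at 21.3 (20.6 to 21.97), Csf1r at 12.0 (11.5 to 12.5), Csf2ra at 9.33 (8.88 to 9.80) and Csf2rb at 5.11 (4.77 to 5.45). Kit was at 2.16 CPM (1.95 to 2.40), Csf3r at 1.63 (1.45 to 1.83), Il34 at 1.06 (0.911 to 1.22) and Csf2, with 15 reads, at 0.0873 (0.0488 to 0.144). Fewer cells of a type and less RNA per cell cannot be told apart in such a bulk sample.

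Set beside the whole single-cell library, Csf1 was at 92.7 CPM in bulk PDGFRA+ cells and 39.7 CPM in the library (log2 ratio 1.20), the only member of 9 at or above 1, as were 27.5% of 13920 genes. With the deposited TPM its ratio was 0.18. At or below −1 were 7 members (23.3% of genes): Csf3r (−5.49), Csf2rb (−4.60), Csf2 (−3.45), Kit (−3.32), Csf2ra (−3.07), Csf1r (−2.81) and Kitl (−1.94). Il34 was near even, at 1.06 CPM in bulk and 1.22 CPM in the library. Assay and sample differ together here and cannot be told apart.

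Set beside the 800 of 2169 mesenchymal-like single cells with a Pdgfra UMI, the direction turned for Csf1r. It was at 12.0 CPM in bulk PDGFRA+ cells and 4.89 CPM in those single cells (log2 ratio 1.14), and Csf1 at 92.7 and 27.1 CPM (1.74); 18.5% of genes were at or above 1. Kitl was at 21.3 CPM in bulk and 84.1 CPM in the single cells (−1.93), of which 29.5% (26.4 to 32.8%) had a Kitl UMI. Csf2rb (−1.65) and Csf3r (−1.86) were also lower, and 20.3% of genes were at or below −1.

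Markers of the classes were summed beside these values. The 10 lipofibroblast or matrix fibroblast markers summed to 1522 CPM in bulk PDGFRA+ cells. In the single cells with a Pdgfra UMI they summed to 2527 CPM, with 8 of them lower and 2 higher in bulk. The 10 myofibroblast markers summed to 9445 CPM in bulk against 3257 CPM in those single cells, with 7 higher and 3 lower in bulk. A single myofibroblast marker made 6057 CPM of the bulk sum, and Pdgfra, also on that list, was lower in bulk (184 and 358.5 CPM). The part of these classes in the Kitl value was not tested. All 4 leukocyte markers were present in bulk at 4.81 to 18.6 CPM and lower than in those single cells, with 41.5 CPM in sum in bulk, 228 CPM in those single cells and 2971 CPM in the library. All 10 interstitial macrophage markers were present too, at 303 CPM in bulk and 312 CPM in the single cells, of which Apoe alone made 285 and 275 CPM; 5 of them were higher in bulk, among them C1qb (3.76 and 1.83 CPM) and Cx3cr1 (2.44 and 0.61 CPM), and 5 lower, among them Mrc1 (2.14 and 20.6 CPM). The 8 mesothelial markers, whose class was high in both Csf1 and Kitl, summed to 37.4 CPM in bulk and 64.0 CPM in the single cells. The part of macrophages in the Csf1r value was not tested. The 9 neutrophil markers summed to 24.6 CPM in bulk and 763 CPM in the single cells with a Pdgfra UMI, and all 9 were lower in bulk. The 10 alveolar macrophage markers summed to 9.67 and 159 CPM, with 9 lower and 1 higher in bulk. These single cells thus carried transcripts of other classes, whose part in their Csf2rb and Csf3r values was not tested.

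**Figure D5:**
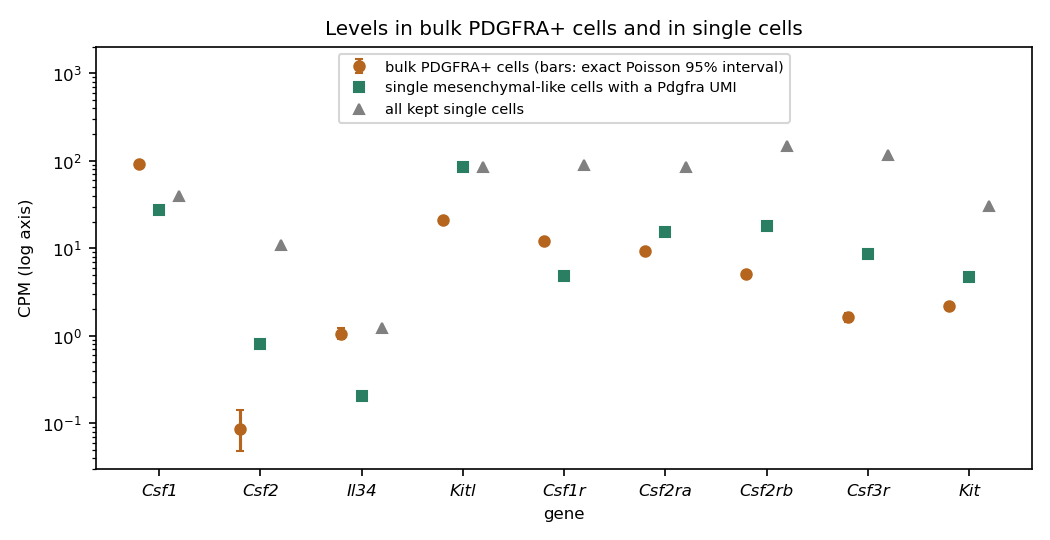
Level of each of the 9 genes in CPM (log axis) in bulk PDGFRA+ cells (brown circles, bars are exact Poisson 95% intervals), in the 800 single mesenchymal-like cells with a Pdgfra UMI (green squares) and in all kept single cells (grey triangles). Csf1 is highest in bulk (92.7 CPM, against 27.1 and 39.7 CPM), and Kitl is lower in bulk (21.3 CPM) than in both single-cell values (84.1 and 84.3 CPM).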

How the data were processed

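Levels of 9 genes were described in 1 single-cell and 1 bulk sample of mouse lung at postnatal day 3. The members, gene lists, markers and naming rules were chosen with earlier results of these data known. Per the submitters' processing notes, Cell Ranger 5.0 and Seurat 3.2.2 were used for the single cells, and for bulk the mm10 build with HISAT2, Trim Galore, featureCounts and DESeq2. The deposited single-cell values are whole-number UMIs that look corrected for depth (totals span 1.79-fold), so they were treated as a score, not as raw counts; no source used here names that correction. The deposited bulk table gives the authors' expected counts (15.9% not whole), TPM and FPKM; the expected counts were scaled to CPM over 171910584 reads, TPM compared genes, and FPKM was not used.

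Cells with at least 500 genes and at most 10% mitochondrial UMIs were kept, and doublets predicted with Scrublet (expected share 5%) left out. Clustering with scanpy 1.11.5 (2000 variable genes without the members and listed genes, 30 components, 15 neighbours, Leiden resolution 1, unclear immune clusters divided at 0.5) gave clusters named by mean marker score, at least 1. Scores closer than 0.5 were decided by markers among the 10 leading genes. Clusters still tied, or without raised markers of their own lineage, stayed unnamed. So did clusters with a high score of another lineage, but immune clusters were not put to this rule. Being led by another class's genes left only mesenchymal and epithelial clusters unnamed. Unnamed were 331 cells, beside 61 mesenchymal and 14 myeloid. Details of the naming were set after seeing the data, and Flt3, Il5, Gata2 and Gata3 were dropped from the markers. The tests had been designed for raw counts; as these values are not raw, single-cell levels have no Poisson interval and no thinning was run. Genes with at least 20 UMIs entered compartment ratios, with a pseudocount of 1 CPM. All members were named, the other genes by size within fixed lists (the 4 largest ratios of genes with at least 100 UMIs, and every relative with 20); leading genes of clusters, Apoe, C1qb, Cx3cr1, Mrc1 and Gpihbp1 were chosen after their values were seen, and 1 gene that the rule names is not reported here. The ratio code was checked on simulated data. Alternatives changed the cell filter, doublets, clustering, weighting, pseudocount, minimum and bulk unit.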

Additional observations from a re-analysis of the deposited data

How the results depend on the processing

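No paired analysis was possible because each group is 1 sample with no shared replicate numbers, and no replicate could be left out. The counts of members high in each compartment, and the genes behind them, were the same in all 7 alternatives: 0 mesenchymal, 1 epithelial (Il34), 2 endothelial (Kitl and Kit), 5 myeloid and 1 lymphoid (Csf2). Of 315 recomputed compartment ratios 309 stayed on their side of the limits, 6 left it (5 of Il34 and 1 of Csf1) and 0 changed sign. Members high in bulk PDGFRA+ cells numbered 1 (Csf1), 0 with the deposited TPM and 2 (Csf1 and Csf1r) over mesenchymal-like cells with a Pdgfra UMI, where the Csf1r ratio turned to 1.14; the cause was not tested. Of 71 class levels 67 moved by less than 1.5-fold; the other 4 were Csf2 in group 2 innate lymphoid-like cells and Csf1r in interstitial macrophage-like cells, whose classes held more cells. Of 53 shares 45 stayed within their interval. The share of general capillary endothelial-like cells with Kit was 66.2% with the stricter filter, 67.3% with doublets kept and 69.8% at resolution 2. In each of these settings that class took in a cluster led by Vwf and Fbln2, named large vessel endothelial-like in the clustering used above. With the stricter filter no Tpsb2-led class was named, and 1 cluster of 118 cells was led by Mcpt8, Cpa3 and Tpsb2. The Kit level and share of Tpsb2-led cells were therefore not recomputed in that setting. Il34 (71 UMIs) and the classes under 50 cells are limited by depth and cell number.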

Other observations

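Cells left out for mitochondrial UMIs differed from those kept in these genes. Of the 646, 15.5% (12.8 to 18.5%) had a Kit UMI against 7.52% (7.02 to 8.04%) of the 10439 kept cells, and they held 14.1% of all Kit UMIs. The capillary gene Gpihbp1 was in 12.4% of them against 7.51% of kept cells, while Csf3r was in 6.97% against 18.8% and Csf2rb in 15.02% against 29.8%.

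Small clusters without a name carried members too. A cluster of 28 cells led by Prg4, Fcna and Retnla had Csf1r at 673.5 CPM with a UMI in 28 of 28 cells, Csf3 at 100.4 CPM and Csf2 at 35.5 CPM. Another of 14 myeloid cells, tied between alveolar macrophage and neutrophil markers and led by Csf3 (114 CPM), had Csf2rb at 570.3 CPM, Csf3r at 433 CPM and Csf1 at 103 CPM.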
